A study of Mus musculus with 6 samples.

Results

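The 6 genes described here encode matricellular, microfibril and crosslinking components of the extracellular matrix, with fibronectin and a protease inhibitor beside them: Tnc, Thbs2, Mfap5, Lox, Fn1 and Timp3. They were chosen by gene symbol out of 5755 genes named on the array, after earlier results of these data had shown a change in each of them. The deposited table holds 7 probes with these symbols among 8734 probes. Each gene had 1 probe with values on all 6 arrays. Timp3 had a second probe, listed without a value on any array.

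The study cultured smooth muscle cells of the airway that grew out of pieces of trachea. The trachea came from 2AR-OE mice, which overexpress the beta2-adrenergic receptor, or from nontransgenic (NTG) mice. RNA was taken between passages 8 and 10 from cultures begun in 20% fetal calf serum, each started from a single trachea, and over 90% of such cells stained for smooth muscle actin, per the labels. No label names the strain, age or sex of the mice, the promoter that drives the transgene, or an agonist given to either group. The 6 samples are two-colour arrays, each of which compares RNA of the 2 genotypes directly; those numbered 1 in their titles (1A, 1B, 1C) are called set 1 and those numbered 2 (2A, 2B, 2C) set 2.

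The dye Cy5 marked transgenic RNA on 4 arrays (1A, 1B, 2A, 2B), and the dyes were exchanged on 2 (1C, 2C). Every value is a log2 ratio of the 2 channels, so a value of 1 is a 2-fold difference. The ratio is likely transgenic over nontransgenic, since Cy5 holds the transgenic RNA in the majority orientation and those cells are the test condition, but the labels do not state it; if it is the reverse, each "higher" reads "lower". The columns of the swapped arrays were read as turned to that direction too, which no label states. The values are ratios, so neither the expression level of a gene nor the presence of a cell type can be read from them, and expression of the transgene itself was not analysed here. Nothing in the labels says that the arrays of a set came from separate cultures, so every error below measures how arrays differ and may be technical. In bulk RNA, fewer cells of a type and less RNA per cell cannot be told apart.

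Smooth muscle cells sit in a matrix that they make themselves. Fibronectin, the product of Fn1, is assembled into fibres through integrins and serves as a scaffold on which collagens and other proteins are laid down. Tenascin C (Tnc) and thrombospondin 2 (Thbs2) are matricellular proteins, which are secreted into the matrix and modulate the contact between cell and matrix rather than bear load. Mfap5 encodes MAGP-2, a small glycoprotein of the fibrillin microfibrils on which elastin is deposited. Lysyl oxidase (Lox) oxidises lysines of collagen and elastin, which lets the chains crosslink. Timp3 encodes a matrix-bound inhibitor of metalloproteinases. In airway wall, deposition and stiffening of this matrix are part of what is called remodelling.

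Sequence upstream of the transcription start was looked up for the 6 genes in a RefSeq promoter table of build GRCm38.p6, to show the DNA beside the genes that moved in opposite directions. It held entries for 3 of them, Tnc (2 starts), Thbs2 and Timp3, and none was printed for Mfap5, Lox or Fn1. The 250 bases before a start are shown 5′ to 3′, at chr4:64046937-64047186 (minus strand) for the downstream start of Tnc, chr17:14694263-14694512 (minus strand) for Thbs2 and chr10:86300162-86300411 (plus strand) for Timp3. Capitals mark matches, on either strand, to the GC box GGGCGG or to the TATA box motif TATAAA.
Tnc: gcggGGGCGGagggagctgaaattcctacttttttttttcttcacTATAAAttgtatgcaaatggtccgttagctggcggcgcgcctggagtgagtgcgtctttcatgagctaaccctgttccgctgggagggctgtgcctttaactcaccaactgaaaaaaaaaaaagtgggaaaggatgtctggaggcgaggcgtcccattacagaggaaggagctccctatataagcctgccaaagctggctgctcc
Thbs2: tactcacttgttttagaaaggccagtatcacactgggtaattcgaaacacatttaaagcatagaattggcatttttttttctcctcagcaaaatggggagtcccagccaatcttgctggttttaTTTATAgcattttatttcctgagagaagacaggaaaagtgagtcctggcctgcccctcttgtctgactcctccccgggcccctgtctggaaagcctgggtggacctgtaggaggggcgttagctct
Timp3: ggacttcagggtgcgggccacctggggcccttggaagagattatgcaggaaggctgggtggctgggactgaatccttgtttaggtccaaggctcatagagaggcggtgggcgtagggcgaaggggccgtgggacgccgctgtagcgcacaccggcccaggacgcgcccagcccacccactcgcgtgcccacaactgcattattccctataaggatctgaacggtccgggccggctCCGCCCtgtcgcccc

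The cyclic AMP response element TGACGTCA, which CREB binds, had no match in these windows, nor had its core TGACG, the AP-1 site TGACTCA or the CArG box bound by serum response factor. TGACG is contained in TGACGTCA, so these 2 searches overlap. Of 32851 windows of 250 bases in the table, 1.55% held TGACGTCA, 17.8% TGACG, 4.46% TGACTCA and 1.47% a CArG box, while 32.7% held GGGCGG and 12.4% TATAAA. The GC box lay in the windows of Tnc and Timp3, and the TATA motif in those of Tnc and Thbs2. Counted from the start, the GC box began at -246 in the printed Tnc window and at -15 for Timp3. The TATA motif began at -205 in the Tnc window and at -126, on the opposite strand, for Thbs2. Only the exact letters TATAAA were searched, so variant forms of a TATA box were not marked. The Timp3 window had 65.6% G and C, the Thbs2 window 46.8% and the downstream Tnc window 51.2%, against a median of 52.4% over all windows. The matches describe letters in these windows only.

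The 6 genes split into 4 with positive and 2 with negative ratios, and each kept its sign on all 6 arrays. Tnc, Thbs2, Mfap5 and Lox had higher ratios, likely in transgenic cells, from 1.54-fold for Lox to 2.96-fold for Tnc. Fn1 and Timp3 had lower ratios, by 1.78-fold and 1.46-fold. Over 6756 rows (genes or unnamed probes) measured on all 6 arrays, 19.7% kept 1 sign on all of them: 11.2% were positive and 8.51% negative throughout. These ratios are what the genes were chosen on, so they are described without a test. All 6 lay among the 484 of 6807 rows past the fit's threshold, a share of 7.11% (4.03% higher and 3.09% lower), and nothing is read from that count.

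**Figure D1:**
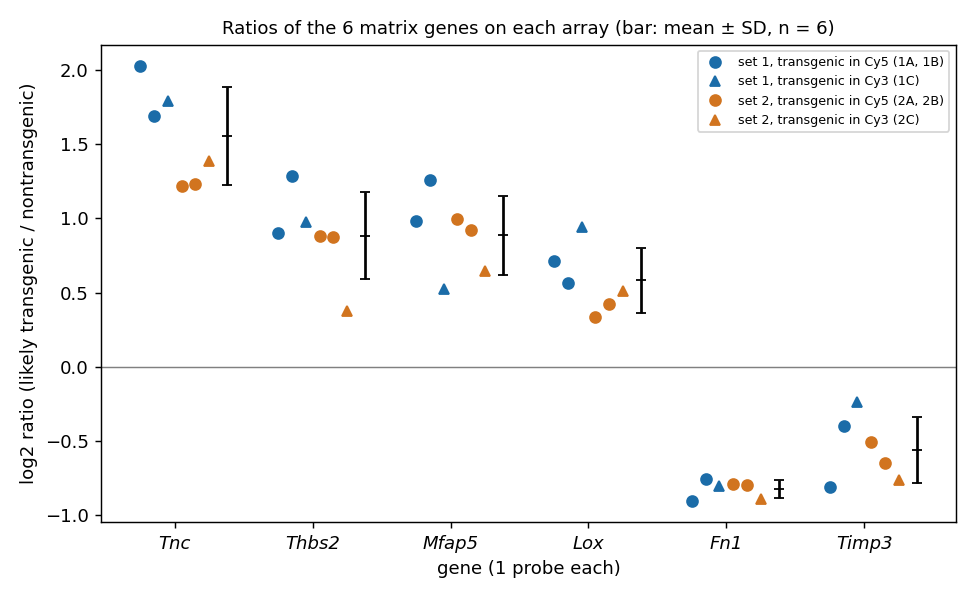
Log2 ratio (y axis, likely transgenic over nontransgenic) of each gene (x axis) on the 6 arrays; colour gives the set, circles mark arrays with Cy5 on the transgenic RNA, triangles those with Cy3 on it, and the bar the mean ± SD over 6 arrays. Tnc lies between 1.22 and 2.03 on every array, Fn1 between -0.90 and -0.76, and the set 1 points of Tnc all lie above its set 2 points.

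Of the matricellular genes, Tnc had log2 ratios of 2.03 on array 1A, 1.69 on 1B, 1.79 on 1C, 1.22 on 2A, 1.23 on 2B and 1.39 on 2C. The 3 arrays of set 1 were all above the 3 of set 2, whichever dye held the transgenic RNA. Its mean was 1.56 ± 0.33 (SD, n = 6), and the limma fit with a dye term gave 1.57 ± 0.14 (SE). On single arrays this is 2.32-fold to 4.07-fold, and Tnc was beyond 2-fold on each of them. Tnc ranked 17 from the top among 5644 named rows.

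Thbs2, whose product binds metalloproteinases and restrains vessel growth, stood at 0.90 on array 1A, 1.29 on 1B, 0.97 on 1C, 0.88 on 2A, 0.87 on 2B and 0.37 on 2C. Array 1B was the highest and 2C the lowest, and the other 4 arrays lay within 0.87 to 0.97. The set 1 values were again above those of set 2, here by a gap as small as 0.90 against 0.88. The mean was 0.88 ± 0.29 (SD, n = 6) and the fitted ratio 0.83 ± 0.11 (SE), a 1.78-fold difference.

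Mfap5, the microfibril gene, gave 0.98 on 1A, 1.26 on 1B, 0.99 on 2A and 0.92 on 2B, the arrays with Cy5 on the transgenic RNA. With the dyes exchanged it gave 0.52 on 1C and 0.64 on 2C. Both swapped arrays were thus below the other 4, and Mfap5 was the only one of the 6 genes whose dye orientations did not overlap; over all rows on 6 arrays that share was 31.5%. Its mean was 0.89 ± 0.27 (SD, n = 6), and the fit, which weights both orientations equally, gave 0.81 ± 0.07 (SE) or 1.76-fold.

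Lox, the crosslinking enzyme, had the smallest ratios of the 4 higher genes: 0.71 on 1A, 0.56 on 1B, 0.94 on 1C, 0.34 on 2A, 0.42 on 2B and 0.51 on 2C. Set 1 lay above set 2 without overlap, as for Tnc and Thbs2. The highest value, 1.92-fold, was on array 1C. The mean was 0.58 ± 0.22 (SD, n = 6) and the fitted ratio 0.62 ± 0.09 (SE).

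On the deposited ratios, Fn1 was the steadiest of the 6 genes. It had -0.90 on 1A, -0.76 on 1B, -0.80 on 1C, -0.79 on 2A, -0.80 on 2B and -0.89 on 2C. With arrays scaled to the same spread, its fitted ratio was -0.84 ± 0.10 (SE). That SE was above those of Thbs2 (0.06), Lox (0.07) and Mfap5 (0.08), and below those of Tnc and Timp3 (0.13 each). The sets overlapped, and so did the dye orientations. From the lowest to the highest array the values spanned 0.15, against 0.57 to 0.91 for the other 5 genes. The mean was -0.82 ± 0.06 (SD, n = 6), the fitted ratio -0.83 ± 0.06 (SE), or 1.78-fold lower, and only 0.713% of named rows on all 6 arrays had an SD as small. The probe is annotated to the transcript AK090130; which spliced forms of fibronectin it detects was not analysed here.

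Timp3, the inhibitor, had ratios of -0.81 on 1A, -0.40 on 1B, -0.24 on 1C, -0.51 on 2A, -0.65 on 2B and -0.77 on 2C. Set 1 held both the lowest and the highest of these values, so the sets overlapped entirely. The mean was -0.56 ± 0.22 (SD, n = 6) and the fitted ratio -0.55 ± 0.10 (SE). With the set number as a random replicate block (estimated correlation 0.295), Timp3 was the one gene of the 6 that left the group past the threshold; 2.89% of all rows passed in that fit.

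The order of the ratios was nearly the same on each array. Tnc was highest on all 6, and Fn1 was lowest with Timp3 next to it. The other three changed places: Thbs2 minus Mfap5 averaged -0.006 ± 0.243 (SD, n = 6), with Thbs2 above on 2 of 6 arrays. Thbs2 exceeded Lox on 5 of 6 arrays (0.30 ± 0.33, SD) and Mfap5 exceeded Lox on 5 of 6 (0.31 ± 0.42, SD), differences no larger than their spread. Tnc exceeded Thbs2 by 0.68 ± 0.35 (SD) and Mfap5 by 0.67 ± 0.42 (SD), and Fn1 lay below Timp3 by a mean difference of -0.26 ± 0.18 (SD), each in 1 direction on 6 of 6 arrays.

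The arrays differ in how widely all of their ratios scatter, which sets how far a given ratio stands out. The median absolute deviation over all probes was 0.547 on array 1C and 0.281 to 0.411 on the other 5. Tnc lay between the 95.3rd and the 99.7th percentile of rows on every array, lowest on 1C. Mfap5 lay at the 78.3rd percentile on 1C and at the 95.6th to 98.9th on the others. Thbs2 was at the 87.5th percentile on 2C and the 88.4th on 1C, and at the 96.5th to 99.0th elsewhere.

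Lox, with the highest ratio of its own series on 1C, reached only the 88.0th percentile there, below its 94.3rd on 1A. Fn1 stayed within the lowest 7.82% of rows on all arrays and within the lowest 1.35% on 2C. Timp3 ranged from the 1.92nd percentile on 2C to the 29.7th on 1C, so that its ratio on 1C lay inside the middle range of that array. Between 8495 and 8555 probes had a value per array; spot brightness was not used here, and the number of arrays is the only measure of precision.

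**Figure D2:**
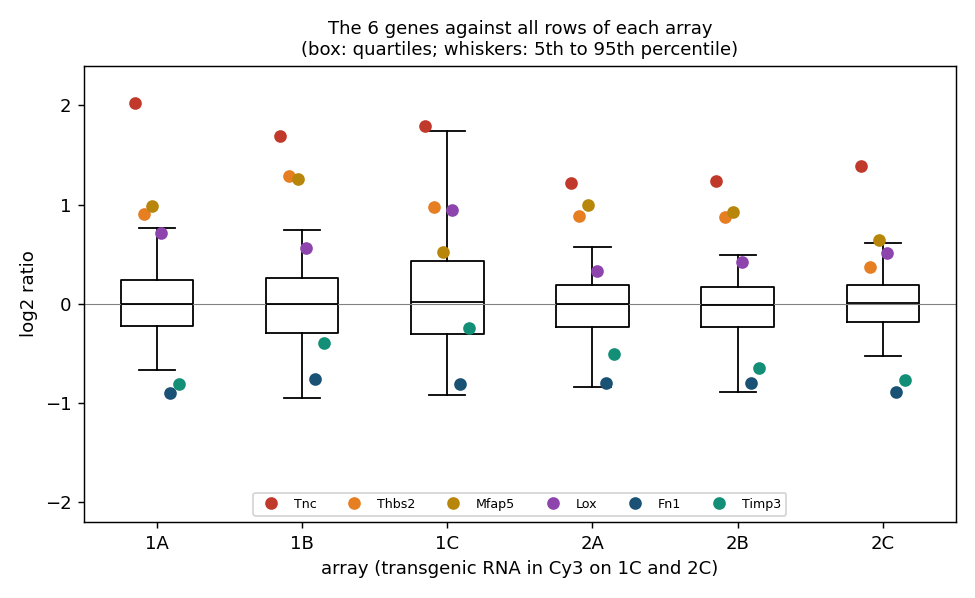
Log2 ratios (y axis) of the 6 genes, as coloured points, against all rows of each array (x axis); boxes give the quartiles and whiskers the 5th to 95th percentile. Array 1C has the widest box and whiskers, and there Mfap5 and Timp3 lie at the 78.3rd and 29.7th percentile.

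The set comparison asked whether the ratio differed between sets 1 and 2, a contrast that the genes were not chosen on. By limma with Benjamini-Hochberg adjustment over all rows, 0 of 6807 rows passed (0%), with a lowest adjusted p of 0.0716, and 1616 rows (23.7%) had an unadjusted p under 0.05. Tnc was lower in set 2 by a mean difference of -0.56 ± 0.13 (SE; 95% interval -0.89 to -0.22; limma unadjusted p = 0.00876, adjusted p = 0.0984). Its means were 1.84 in set 1 and 1.28 in set 2. Lox differed by -0.32 ± 0.10 (SE; 95% interval -0.57 to -0.06; limma unadjusted p = 0.024, adjusted p = 0.146), from 0.74 to 0.42. None of the 6 genes passed after adjustment. Ratios scattered more widely in set 1, with median absolute deviations of 0.350 to 0.547 per array, against 0.281 to 0.319 in set 2. With arrays scaled to the same spread, the set difference of Tnc was -0.02 ± 0.27 (SE). Under that scaling it was -0.10 ± 0.11 (SE) for Lox and -0.05 ± 0.10 (SE) for Thbs2.

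Thbs2 gave a set difference of -0.34 ± 0.15 (SE; 95% interval -0.75 to 0.06; limma adjusted p = 0.265). For 3 of the 6 genes, Tnc, Thbs2 and Lox, the sets did not overlap; over all rows on 6 arrays that share was 25.2%. Mfap5 (-0.07, 95% interval -0.40 to 0.26) and Timp3 (-0.16, 95% interval -0.65 to 0.33) had intervals that span 0, with limma adjusted p of 0.758 and 0.635. Fn1 differed between the sets by -0.008 ± 0.089 (SE; 95% interval -0.24 to 0.23), the smallest set difference of the 6 on the deposited ratios. With arrays scaled to the same spread, the set difference of Fn1 was -0.30 ± 0.15 (SE). Under that scaling it was -0.33 ± 0.22 (SE) for Timp3 and 0.20 ± 0.12 (SE) for Mfap5.

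The dye comparison bears on both the direction and the dye bias of a probe. It is the part of the ratio that turns with the dyes, as log2 of Cy5 over Cy3, and it would be the transgenic ratio if the swapped columns had not been turned. Over all rows, 1 of 6807 passed (0.0147%), and 1242 (18.2%) had an unadjusted p under 0.05. Mfap5 had the largest dye term of the 6, 0.23 ± 0.07 (SE; 95% interval 0.05 to 0.41; limma unadjusted p = 0.0209, adjusted p = 0.217). Thbs2 followed at 0.16 ± 0.11 (SE) and Lox at -0.11 ± 0.09 (SE), with limma adjusted p of 0.463 and 0.53.

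The dye term was -0.02 ± 0.14 (SE) for Tnc, 0.02 ± 0.06 (SE) for Fn1 and -0.04 ± 0.10 (SE) for Timp3. In 36 rows all 4 arrays of the Cy5 orientation were beyond 2-fold in 1 direction; both swapped arrays shared that direction in 29 of these rows and opposed it in 6, and 1 was mixed. Over all rows the correlation between arrays, across genes, was 0.545 to 0.674 for pairs of 1 set and 1 orientation and 0.0805 to 0.17 for pairs of 1 set with the dyes exchanged. Means in the Cy5 and the swapped orientation were 1.54 and 1.59 for Tnc, and -0.81 and -0.85 for Fn1. These stood beside a table in which the orientations as a whole were weakly related. Equal signs in both orientations are also what a fixed dye bias of a probe gives in columns that were not turned; which of these holds was not tested.

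**Figure D3:**
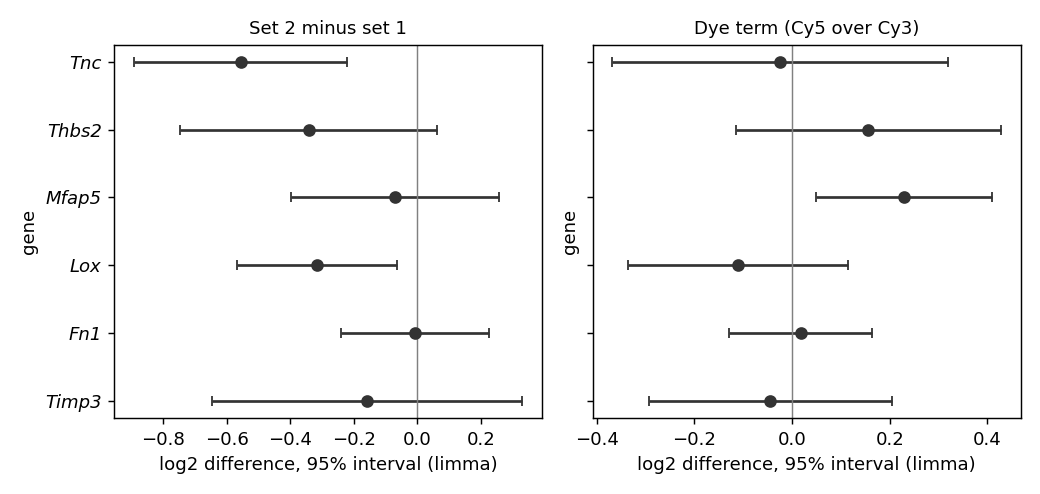
Difference of set 2 minus set 1 (left) and dye term, Cy5 over Cy3 (right), on the log2 scale (x axis) for each gene (y axis), with 95% intervals of the limma fit. The set intervals of Tnc and Lox and the dye interval of Mfap5 exclude 0 before adjustment over all rows; none of the 6 genes passed after it.

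The surrounding matrix genes were taken from 5 lists by role, without the 6 genes. Of 50 measured, 2 rose and 5 fell by limma at an adjusted p under 0.05 over all rows (14%, against 7.11% of all rows), and the median ratio was -0.003 against 0.002 for all rows. The 2 that rose and 2 of the 5 that fell were matricellular. With the set number as a random replicate block, 5 of the 50 passed: Thbs3, Smoc2, Ecm1, Bmp1 and Itgb3. These 5 also passed with each array left out in turn.

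Among 11 other matricellular genes, Thbs3, a thrombospondin of the pentameric kind, rose by 1.18 ± 0.09 (SE, limma adjusted p = 0.00411), with 0.90 to 1.37 on 6 of 6 arrays. Smoc2, a secreted calcium-binding protein of the SPARC family, rose by 1.06 ± 0.11 (SE, limma adjusted p = 0.00726), higher on 6 of 6 arrays. Ecm1, a secreted glycoprotein of the matrix, had a ratio of -0.92 ± 0.11 (SE, limma adjusted p = 0.0101), lower on 6 of 6 arrays. Its separate probes had means of -0.85 and -0.91.

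Smoc1, a relative of Smoc2, fell as the mean of its 2 probes (-0.58 ± 0.09, SE, limma adjusted p = 0.0182), but the probes disagreed: one had a mean of -1.26 over the arrays and the other 0.30. Smoc1 had an adjusted p of 0.0516 by limma with the replicate block. It also lost the call without 1B, 2A, 2B or 1C, at limma adjusted p from 0.0566 to 0.0729. Of the other thrombospondins, Thbs4 was at 0.19 ± 0.09 (SE, limma adjusted p = 0.22) and Comp, the cartilage oligomeric matrix protein of that family, at -0.25 ± 0.10 (SE, limma adjusted p = 0.178, below 0 on 6 of 6 arrays). The tenascins Tnn and Tnxb were at 0.10 ± 0.14 and -0.30 ± 0.16 (SE), with limma adjusted p of 0.672 and 0.282. The list's median was 0.096, with 7 of 11 ratios positive, beside 3423 of 6807 over all rows.

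Of 9 microfibril and elastic fibre genes, 0 passed by limma and the ratios ran from -0.31 for Eln, elastin itself, to 0.43 for Fbln7, a fibulin. The list's median was 0.007, beside 0.81 for Mfap5. Fbn2, the fibrillin measured, was at -0.01 ± 0.10 (SE), and Mfap3 at -0.09 ± 0.06 (SE). At an unadjusted p under 0.05, limma gave the 3 genes Fbln7, Emilin2 and Eln; of all rows, 27.7% had one.

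Of 9 genes of crosslinking and collagen processing, 2 fell and 0 rose. Bmp1, the procollagen C-proteinase that also activates lysyl oxidase, had a ratio of -0.56 ± 0.07 (SE, limma adjusted p = 0.00962), with means of -0.66, -0.50 and -0.40 at its 3 probes. P3h1, a prolyl hydroxylase, was at -0.51 ± 0.10 (SE, limma adjusted p = 0.0434). Its ratio ran from -0.47 to 0.06 in the Cy5 orientation and was -0.93 and -0.64 on the swapped arrays; with the replicate block its limma adjusted p was 0.138. P3h1 kept the call with 1 array left out only where that was 2C (0.0323); the other 5 gave limma adjusted p from 0.0636 to 0.169. Loxl2, the lysyl oxidase relative measured, was at -0.17 ± 0.11 (SE, limma adjusted p = 0.358). Its ratio was opposite in sign to that of Lox in set 1 only, at -0.43 to -0.35, and ran from 0.03 to 0.08 in set 2. The list's median was -0.21.

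Of 7 receptor genes for fibronectin, tenascin and thrombospondin, Itgb3, the beta3 integrin chain, fell (-1.001 ± 0.081, SE, limma adjusted p = 0.00411, lower on 6 of 6 arrays). All 7 ratios were negative, beside 3384 of 6807 over all rows. Those of Itga9, Cd36, Sdc2 and Cd47 lay near 0, from -0.09 to -0.06, and only Itgb3 passed. Itga5, the alpha chain of the classical fibronectin receptor, was at -0.45 ± 0.11 (SE, limma adjusted p = 0.0722); it lay at -0.61 to -1.23 in the Cy5 orientation and at -0.11 and 0.32 on the swapped arrays.

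Of 14 metalloproteinases and inhibitors, 0 passed by limma after adjustment, and 4 had an unadjusted p under 0.05 (Mmp14, Timp2, Mmp23 and Adamts4), beside 27.7% of all rows. Timp2 was at 0.61 ± 0.17 (SE, limma adjusted p = 0.0884) and Timp4 at 0.07 ± 0.15 (SE, limma adjusted p = 0.79), beside -0.55 for Timp3. Mmp14, the membrane-anchored metalloproteinase, was at 1.21 ± 0.30 (SE, limma adjusted p = 0.0685). The list's median was 0.11, with 11 of 14 ratios positive, beside 3423 of 6807 over all rows.

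**Figure D4:**
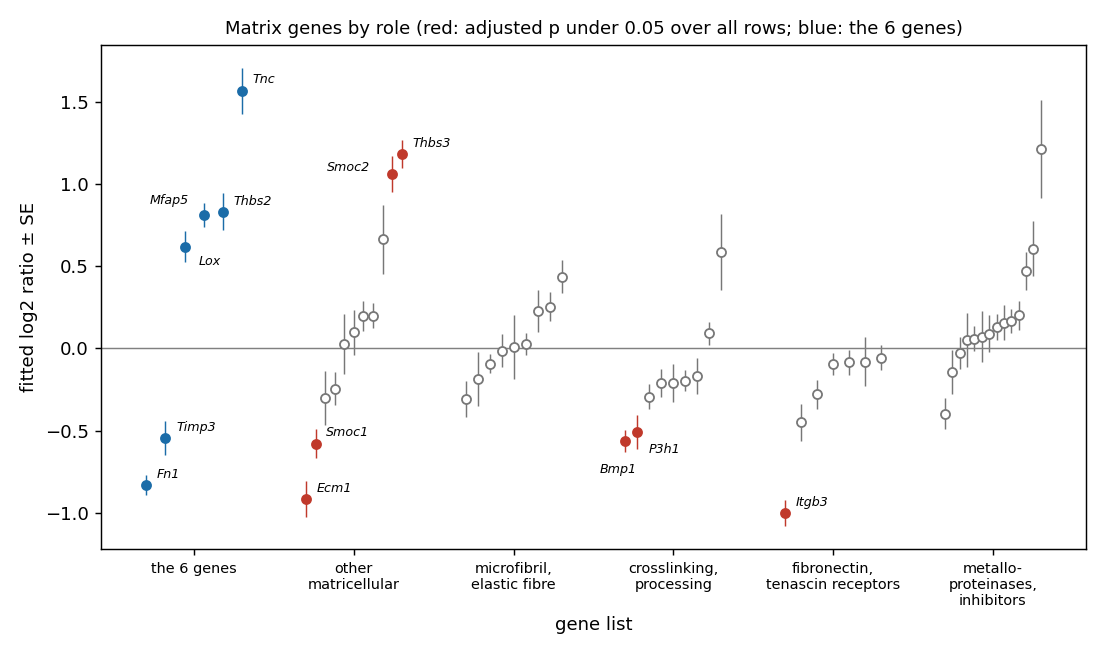
Fitted log2 ratio ± SE (y axis) of each measured gene in the 6 genes and the 5 lists by role (x axis); blue marks the 6 genes, red other genes with a limma adjusted p under 0.05 over all rows, and open points those that did not pass. Thbs3 and Smoc2 are the 2 red points above 0, at 1.18 and 1.06.

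The 3 named genes closest to each of the 6, by root mean square difference of the log2 ratio over the 6 arrays among 5613 others, were found for description only. Array patterns that they share with their gene, here and in the next paragraph, follow largely from that choice. Tnc was nearest to Fhl1 (0.258), a LIM domain protein, Cst3 (0.26), the protease inhibitor cystatin C, and Rasl11a (0.313). All 3 had Tnc's order of the sets without overlap, with the widest gap for Cst3 (2.01 to 2.34 in set 1, 1.25 to 1.36 in set 2) and narrow ones for Fhl1 (1.62 to 1.90, 1.45 to 1.60) and Rasl11a (1.71 to 2.16, 1.29 to 1.64). Thbs2 was nearest to S1pr3 (0.168), a sphingosine-1-phosphate receptor, Amotl2 (0.171) and Adk (0.179), adenosine kinase; all 3 were lowest on 2C, as Thbs2 was, at 0.64, 0.43 and 0.08.

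Mfap5 was nearest to Rcan2 (0.111), an inhibitor of calcineurin, Tmem123 (0.136) and Jade1 (0.171), and all 3 had lower ratios on both swapped arrays than on the other 4. Lox was nearest to Ost4 (0.0721), Ankrd10 (0.0951) and St3gal2 (0.136), each highest on 1C. Fn1 was nearest to the receptor gene Tgfbr1 (0.164), the growth factor gene Igf1 (0.17) and Agrn (0.182), the basement membrane proteoglycan agrin. Timp3 was nearest to Myo5a (0.112), a myosin motor, Sertad4 (0.156) and Gphn (0.174).

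Markers of cell types that a tracheal explant can hold were set beside these ratios. Of 5 fibroblast markers, 4 were positive and 1 rose, Thy1 (2.73 ± 0.21, SE, limma adjusted p = 0.00411); the median was 0.70, and the mean of the 5 ran from 0.47 on array 1B to 1.22 on 1C. Dpt, dermatopontin, was at -1.01 on 1B and at 1.83 to 2.27 on the other 5 arrays. Without it the mean of the other 4 was 0.84 on 1B and ran from 0.63 on 2B to 0.99 on 2C. Both means include Thy1, which ran from 2.21 to 3.44 over the arrays. Lum was at 0.70 ± 0.17 (SE), Cd34 at 0.05 ± 0.11 (SE) and Pdgfra at -0.02 ± 0.14 (SE), and none of these passed. Fibroblasts make Mfap5 and Tnc, but smooth muscle cells also make a matrix of their own. Of 4 smooth muscle markers, 1 rose, Cnn1 (0.59 ± 0.10, SE, limma adjusted p = 0.028), the median was -0.04 and the array means ran from -0.06 to 0.26. Among 3 epithelial markers Cdh1 rose (0.32 ± 0.06, SE, limma adjusted p = 0.0333), and of 3 cartilage, 3 endothelial and 5 leukocyte markers 0 passed by limma, while 5 of these 11 had an unadjusted p under 0.05, beside 27.7% of all rows. With the replicate block Cnn1 and Cdh1 no longer passed, at limma adjusted p of 0.0602 and 0.101. Whether a different share of fibroblasts in the cultures has a part in the matrix ratios was not tested.

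The fitted ratios were recomputed under 20 alternative settings per gene. All 120 values kept their direction, and all 120 moved by less than the SD over arrays. Part of this was fixed by the design. The settings for set blocks, floor values, probe summary and row filter left every ratio unchanged. Each gene had 1 probe with values on every array and none at the floor, and both sets held the same mix of dye orientations. A shift of a whole SD was also unlikely from the outset where only 1 array was left out. With 1 array left out, Tnc ran from 1.46 to 1.67, Thbs2 from 0.68 to 0.98, Mfap5 from 0.77 to 0.84, Lox from 0.51 to 0.73, Fn1 from -0.85 to -0.81 and Timp3 from -0.68 to -0.41. Between the sets taken alone, Tnc moved from 1.83 in set 1 to 1.31 in set 2. Lox (0.79 to 0.45), Thbs2 (1.03 to 0.63) and Timp3 (-0.42 to -0.67) moved by more than 1.5 times between the sets, Timp3 toward the larger difference in set 2.

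**Figure D5:**
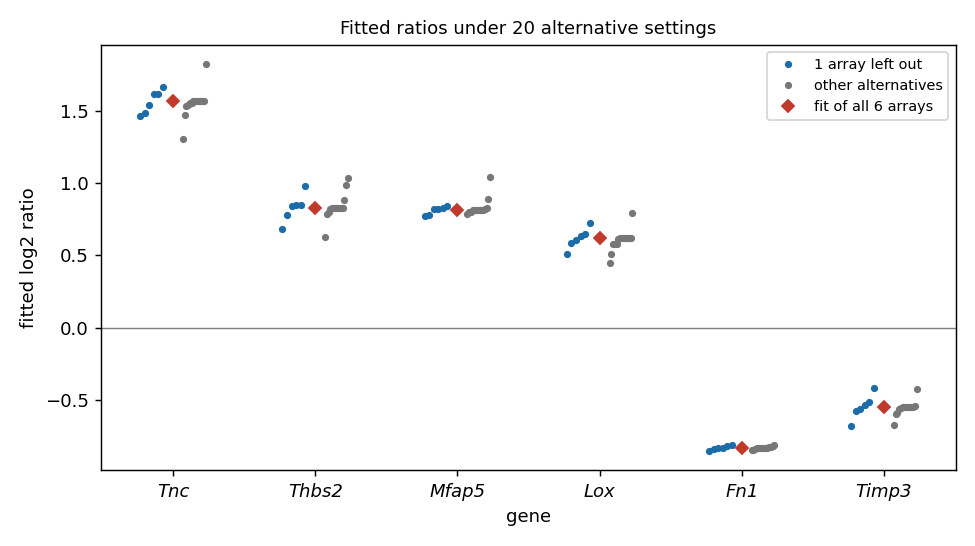
Fitted log2 ratio (y axis) of each gene (x axis) in the fit of all 6 arrays (red diamond), with 1 array left out (blue) and under the other alternatives (grey). No point crosses 0, Fn1 stays within -0.85 to -0.81, and the widest ranges are those of Tnc, from 1.31 to 1.83, and Thbs2, from 0.63 to 1.03.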

How the data were processed

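The deposited table holds log2 ratios of the 2 channels of each array; per the labels' protocols, cDNA was made by reverse transcription, labelled with Cy3 or Cy5 and hybridised competitively to printed slides. No source used here gives the scanner, background correction, normalization or direction of the ratio. The lowest deposited value is the log2 of 0.01 and stands for a floor; none of the 6 genes lay there. Array medians were within 0.0013 of 0.

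Probes were named through the platform annotation (7540 of 8734 with 1 symbol, 14 with several, 1180 with none), and a gene's value on an array is the mean of its probes. Rows with values on at least 4 arrays and in both orientations entered the fit (6807). limma 3.58.1 (R 4.3.3; lmFit, eBayes) fitted the ratio and a dye term, and a further term for the set; p-values were adjusted by Benjamini-Hochberg over all rows, with a threshold of 0.05. The script was tested on simulated data. Figures used Python 3.11.15 and matplotlib 3.10.9.

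The 6 genes and the lists were chosen with earlier results of these data known. Named genes are the 6, each list gene past the threshold, and the 3 nearest to each of the 6; any other gene was named after its values were seen. Alternatives covered the dye term, set blocks, floor values, probe summary, row filter, scaling, centring, weights and arrays left out. No coordinates of probes are given, because the annotation names no build.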

Additional observations from a re-analysis of the deposited data

Results flagged for a closer look

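In tests for a sample that stands apart from the rest of its group, 3 of 70 groups of arrays were marked; chance marks about 1 in 20 groups, or 3.5 here. Thbs2 was at 1.29 on array 1B against 0.87 to 0.90 on the other 3 arrays of the Cy5 orientation. Smoc2 was at 1.49 on array 1A against 1.00 to 1.06 on the other 3 of that orientation. Gphn was at -0.19 on array 1C against -0.56 to -0.46 on the other 5 arrays.

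Ccn2, connective tissue growth factor, was above 0 on every array of set 1 and below 0 on every array of set 2, with a difference of -0.79 for set 2 minus set 1. The limma test of that difference did not pass after adjustment over all rows (unadjusted p = 0.000954, adjusted p = 0.0724).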

How the results depend on the processing

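The direction of each of the 6 genes was kept under the 20 alternatives, which 1 sign on all 6 arrays made likely from the outset. The count of rows past the threshold for the transgenic ratio, 484 in the fit of all 6 arrays, was 197 with the set number as a random replicate block, 1168 with it as a fixed replicate block, 159 with array weights, 1071 on the 4 arrays of the Cy5 orientation, 1057 in set 1 alone and 907 in set 2 alone. It ran from 169 to 1689 with 1 array left out, the highest being without 2C. The 7 calls among the other matrix genes became 18 with the fixed block, 11 in set 1 alone and 11 probes with probes taken singly, and ran from 5 to 15 with 1 array left out, again the highest without 2C. For the set difference the 0 calls became 514 with array weights, 3 with arrays scaled to the same spread and 1 with probes taken singly; none of them was one of the 6 genes. The 1 call for dye became 304 in set 2 alone and 0 in set 1 alone, with floor values missing and with probes taken singly, and ran from 1 to 987 with 1 array left out. Of the 6 genes, Lox and Timp3 both left the group past the threshold with array weights and without 1B, 2A or 2B, Timp3 alone without 1A, in set 1 alone and with the random block, and Lox alone without 1C. The cause was not tested. With 6 arrays and unknown spot brightness, depth cannot be given.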

Other observations

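Other matrix genes had Tnc's split between the sets; they were named after their values were seen. Ccn1, a matricellular protein of the same family as Ccn2, stood at 0.96 to 1.36 in set 1 and 0.13 to 0.29 in set 2, a set difference of -0.90 ± 0.14 (SE, limma adjusted p = 0.0724). Timp2 stood at 0.84 to 1.07 in set 1 and 0.22 to 0.28 in set 2, a set difference of -0.73 ± 0.09 (SE, limma adjusted p = 0.0724). Mmp14, whose product activates the proteinase Mmp2 together with Timp2, stood at 1.18 to 2.26 in set 1 and 0.45 to 0.77 in set 2 (-1.19 ± 0.32, SE, limma adjusted p = 0.121). In all, the sets did not overlap, in either direction, for 16 of the 50 other matrix genes (32%), against 25.2% of all rows on 6 arrays. Not all of the 16 had Tnc's split. Set 2 lay above set 1 for Mfap1a, Ltbp1, Cd36, Loxl2, Eln, Fbn2, Tgm2 and Cd47. What the set numbers stand for is not given in the labels.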
